A study of Arabidopsis thaliana with 2 samples.

Results

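The single-stranded RNA of Arabidopsis flower buds was deposited as a list of hotspots, stretches of the genome with a strand and a score. The hotspots described here were chosen by length alone: every interval on chromosomes 1 to 5 of at least 100 nt was taken. There were 2445 of them among 32785 nuclear hotspots (7.46%, 95% exact binomial interval 7.18 to 7.75) and 33187 in the whole list. They held 13.1% of the nuclear hotspot bases. The other 30340 nuclear hotspots, of 50 to 99 nt, are called the shorter hotspots.

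Both libraries came from immature flower bud clusters of the accession Col-0, with no treatment of the plants named in the labels and the age of the plants not given in the sources used here. There was 1 library for single-stranded RNA and 1 for ribosome-bound RNA, so no value has a replicate check and no p-value is given. The intervals cover counting error only, and hotspots on the same gene share their source. The ribosome-bound library was RNA from pooled monosome and polysome gradient fractions, fragmented before sequencing, so it measures RNA on ribosomes and not the positions of ribosomes. It held 9574408 mapped clones, while the depth behind the hotspot list is not known. The label of the single-stranded RNA library names a nuclease for double-stranded RNA and then RNase ONE, which cuts RNA strands that are not paired. The 2 statements do not match, and the list is called single-stranded here by its name only.

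RNA folds back on itself where its bases can pair, and stretches rich in purines, which pair poorly with each other, tend to remain unpaired. A coding region's base content follows the protein it encodes. Glycine is written by codons that start with GG, and lysine and glutamate by codons made largely of A and G, so proteins with glycine-rich or charged repeats have messages with long runs of a narrow set of bases.

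A group of 15 long hotspots had scores below -5, far stronger than the other long ones. Coding parts of 10 of them are printed because many were rich in glycine codons or purines, so they do not stand for the whole group. Not printed were SIP2, EBF2, EMB1303, AT4G25890 and AT3G10020. SIP2, with the strongest score of any long hotspot, had 50.1% G+A and 9.62% glycine codons. SIP2 and EBF2 met neither limit given below for glycine codons or purine runs, and the rest of those not printed met a limit. The strongest nuclear score belonged to a shorter hotspot, of 51 nt, at -16.37. The stretches are genome sequence from RefSeq TAIR10.1, on the hotspot's strand and read 5′ to 3′. They start at a codon's first base, except for the intergenic one. Where a coding part was longer than the stretch shown, the window with the most glycine codons or purines was taken.

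In the next 6, capitals mark in-frame glycine codons (GGN). They come from GRP23 (a glycine-rich protein, chr2:13864111-13864350, minus), FIB2 (fibrillarin, an RNA methylase of the nucleolus, chr4:13074502-13074645, plus), AT3G03920 (a Gar1/Naf1 subunit of H/ACA ribonucleoproteins, chr3:1010221-1010379, minus), GRP7 (a glycine-rich RNA-binding protein of cold and the circadian clock, chr2:9265483-9265692, minus), SR34a (an SR splicing factor, chr3:18333247-18333360, plus) and AT3G05220 (a heavy metal transport/detoxification family protein, chr3:1489585-1489722, plus). In SR34a and AT3G05220 the glycine codons sat in a block inside otherwise mixed sequence, whereas in GRP23 they made up 81.2% of the codons of the stretch.
GRP23: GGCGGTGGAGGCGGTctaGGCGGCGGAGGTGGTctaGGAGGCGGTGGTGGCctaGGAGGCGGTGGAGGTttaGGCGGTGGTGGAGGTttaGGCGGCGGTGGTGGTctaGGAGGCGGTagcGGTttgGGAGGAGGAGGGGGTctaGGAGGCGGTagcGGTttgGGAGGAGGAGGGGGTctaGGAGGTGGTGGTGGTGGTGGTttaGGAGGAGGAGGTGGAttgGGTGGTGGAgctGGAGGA
FIB2: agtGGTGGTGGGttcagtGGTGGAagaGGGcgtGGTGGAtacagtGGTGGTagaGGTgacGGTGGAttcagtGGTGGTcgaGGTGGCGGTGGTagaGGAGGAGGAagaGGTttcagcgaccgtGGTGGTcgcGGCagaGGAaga
AT3G03920: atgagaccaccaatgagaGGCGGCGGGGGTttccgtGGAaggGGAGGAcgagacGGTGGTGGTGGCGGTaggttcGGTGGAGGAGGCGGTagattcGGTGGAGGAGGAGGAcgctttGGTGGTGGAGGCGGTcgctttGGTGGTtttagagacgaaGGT
GRP7: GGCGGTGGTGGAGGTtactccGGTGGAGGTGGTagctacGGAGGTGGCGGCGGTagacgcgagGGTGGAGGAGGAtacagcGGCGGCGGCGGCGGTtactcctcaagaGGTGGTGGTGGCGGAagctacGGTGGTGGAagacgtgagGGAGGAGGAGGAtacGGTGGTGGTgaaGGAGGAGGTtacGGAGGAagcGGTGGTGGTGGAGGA
SR34a: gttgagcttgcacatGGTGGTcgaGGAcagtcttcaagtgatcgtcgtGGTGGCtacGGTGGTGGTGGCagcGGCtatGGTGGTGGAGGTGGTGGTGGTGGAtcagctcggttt
AT3G05220: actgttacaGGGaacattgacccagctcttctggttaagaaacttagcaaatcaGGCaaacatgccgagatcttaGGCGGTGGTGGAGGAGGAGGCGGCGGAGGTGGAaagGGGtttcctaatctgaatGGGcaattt

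In the next 7, capitals mark runs of at least 8 purines. The 4 of very strong score come from OBE1 (OBERON1, a nuclear protein of meristems, chr3:2486415-2486654, plus), AT1G54410 (a dehydrin, chr1:20310320-20310559, minus), LTI78 (also called RD29A, induced by cold and drought, chr5:21242997-21243176, plus) and AT3G25840 (a protein kinase, chr3:9457099-9457269, minus). The intergenic stretch (chr1:7025194-7025253, minus) is the start of the longest hotspot with no gene. AT1G55270 (a kelch repeat protein, chr1:20619098-20619277, minus) and mtLPD1 (mitochondrial lipoamide dehydrogenase, chr1:17718425-17718604, minus) are shown for contrast, as the longest wholly coding hotspot of ordinary score, at 232 nt, and 1 of 2 tied for the next place, at 229 nt. The other of these, on ATPC2 (a gamma subunit of ATP synthase), had 61.1% G+A over its whole length, against 54.1% on mtLPD1.
OBE1: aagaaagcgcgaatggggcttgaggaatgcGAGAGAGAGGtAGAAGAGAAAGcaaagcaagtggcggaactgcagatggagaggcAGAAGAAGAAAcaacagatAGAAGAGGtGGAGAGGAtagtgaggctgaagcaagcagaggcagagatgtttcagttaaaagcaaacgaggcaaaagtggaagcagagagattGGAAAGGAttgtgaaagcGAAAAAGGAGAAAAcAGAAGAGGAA
AT1G54410: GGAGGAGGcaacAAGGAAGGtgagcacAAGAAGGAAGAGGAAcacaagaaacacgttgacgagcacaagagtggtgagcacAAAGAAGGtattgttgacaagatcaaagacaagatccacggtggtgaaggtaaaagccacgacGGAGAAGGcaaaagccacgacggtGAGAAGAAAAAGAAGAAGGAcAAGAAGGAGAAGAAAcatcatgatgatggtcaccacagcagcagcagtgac
LTI78: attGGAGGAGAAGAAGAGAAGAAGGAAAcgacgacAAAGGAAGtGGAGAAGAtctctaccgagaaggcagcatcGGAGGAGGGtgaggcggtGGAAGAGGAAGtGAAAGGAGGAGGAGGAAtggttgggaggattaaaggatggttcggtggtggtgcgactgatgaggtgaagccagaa
AT3G25840: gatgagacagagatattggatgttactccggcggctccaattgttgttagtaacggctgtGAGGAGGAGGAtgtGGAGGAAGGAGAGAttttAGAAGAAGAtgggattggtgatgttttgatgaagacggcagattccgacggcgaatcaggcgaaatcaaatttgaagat
intergenic: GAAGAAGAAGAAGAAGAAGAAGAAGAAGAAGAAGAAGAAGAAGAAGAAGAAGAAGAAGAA
AT1G55270: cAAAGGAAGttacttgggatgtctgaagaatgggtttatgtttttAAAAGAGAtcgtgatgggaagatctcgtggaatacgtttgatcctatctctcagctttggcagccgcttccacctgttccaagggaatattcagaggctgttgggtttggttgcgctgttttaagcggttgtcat
mtLPD1: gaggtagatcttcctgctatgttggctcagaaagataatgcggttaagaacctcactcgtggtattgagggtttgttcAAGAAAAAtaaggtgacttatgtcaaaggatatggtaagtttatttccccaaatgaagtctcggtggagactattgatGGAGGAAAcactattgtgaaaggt

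Of the 4 stretches of very strong score, OBE1 had 80% G+A, LTI78 77.8%, AT1G54410 74.6% and AT3G25840 64.3%. It was 50.6% in AT1G55270 and 57.2% in mtLPD1. Windows picked for most purines are high in G+A by that choice. Over the whole hotspots G+A was 74.3%, 61.3%, 71.8% and 64.6% in the same order, against 48.7% and 54.1%. High G+A also occurred at ordinary scores: the 200 nt hotspot on AT5G64230 had 70% and a purine run of 22 nt. The intergenic hotspot, 255 nt in full, was 85 copies of GAA from end to end.

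The long hotspots had a median length of 114 nt, with quartiles of 105 and 128 nt and a range of 100 to 1533 nt. Of them 227 reached 150 nt, 21 reached 200 nt and 6 reached 300 nt. The shorter hotspots had a median of 62 nt. Nothing marked off the threshold: 120 hotspots were 100 nt long, with a median score of -3.34, and 115 were 99 nt long, with a median of -3.02. The share that was long lay between 7.16% on chromosome 1 and 8.06% on chromosome 2.

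The score, which is always below 0 and stronger when more negative, comes from the same list as the length and is given as a description only. Its median was -3.34 for the long hotspots and -2.62 for the shorter ones. Apart from 23 hotspots of very strong score, 15 of them long and 8 shorter, no hotspot of any length scored below -3.59. A score at or beyond that limit was held by 24.9% of the long hotspots (610 of 2445) and 11.8% of the shorter (3568 of 30340). The median went from -2.62 at 50 to 79 nt to -3.02 at 80 to 99 nt, -3.03 at 100 to 119 nt and -3.34 from 120 to 199 nt. Ordinary scores fell mostly on a few fixed values, among them -2.62, -3.02, -3.34 and -3.59, so medians move in steps.

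No score lay between -3.59 and -10.03. Of the 23 nuclear hotspots beyond that gap, 15 were long (65.2%, 42.7 to 83.6). The rule for named hotspots took the 10 of strongest score, and the other 5 were added after their values were seen, to complete the group. Among the 21 hotspots of at least 200 nt, 9 belonged to it.

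**Figure D1:**
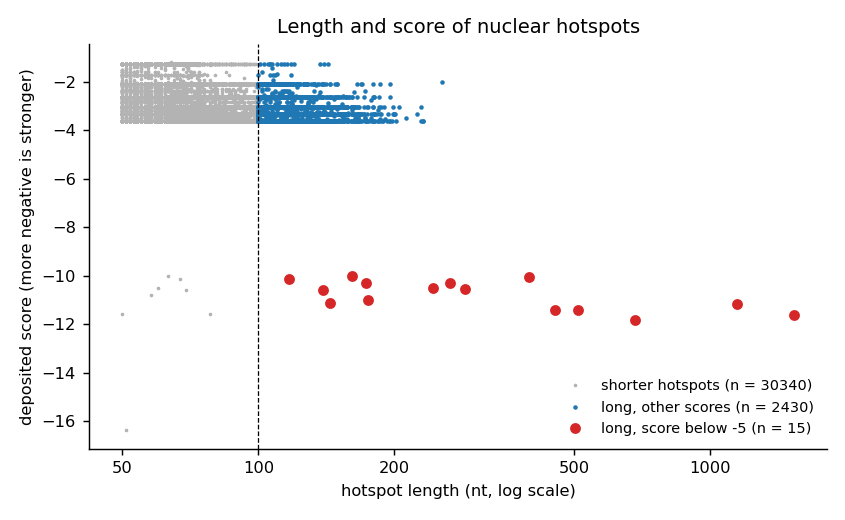
Deposited score against length on a log scale for every nuclear hotspot, with the 100 nt threshold dashed. The 15 long hotspots of very strong score, in red, run from 117 to 1533 nt and lie at -10.03 to -11.81, apart from the other 2430 long hotspots, which end at 255 nt and at a score of -3.59.

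All 15 lay on an mRNA, and they included the 9 longest hotspots of the list that lay on a gene. The longest, 1533 nt on LTI78, covered 1427 coding nt, 96 nt of the 3′ UTR and 10 nt of intron. The next, 1150 nt on GRP7, held both coding exons and the whole intron between them: 531 coding nt, 309 nt of intron, 260 nt of 3′ UTR and 50 nt of 5′ UTR. The hotspot on SIP2 (seed imbibition 2, an alkaline alpha-galactosidase of raffinose breakdown) was 681 nt long, had the strongest score of any long hotspot at -11.81, and took in 470 coding nt and 211 nt of intron. The deposited interval runs along the genome, so whether reads covered the introns inside it is not shown by the list.

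The hotspots on OBE1 (509 nt), GRP23 (453 nt) and AT3G10020 (397 nt, annotated only as a plant protein) held almost no intron. On OBE1 5 nt of intron were included and on the other two none. GRP23's lay wholly in coding sequence, and AT3G10020's ran from 249 coding nt into 148 nt of 3′ UTR.

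**Figure D2:**
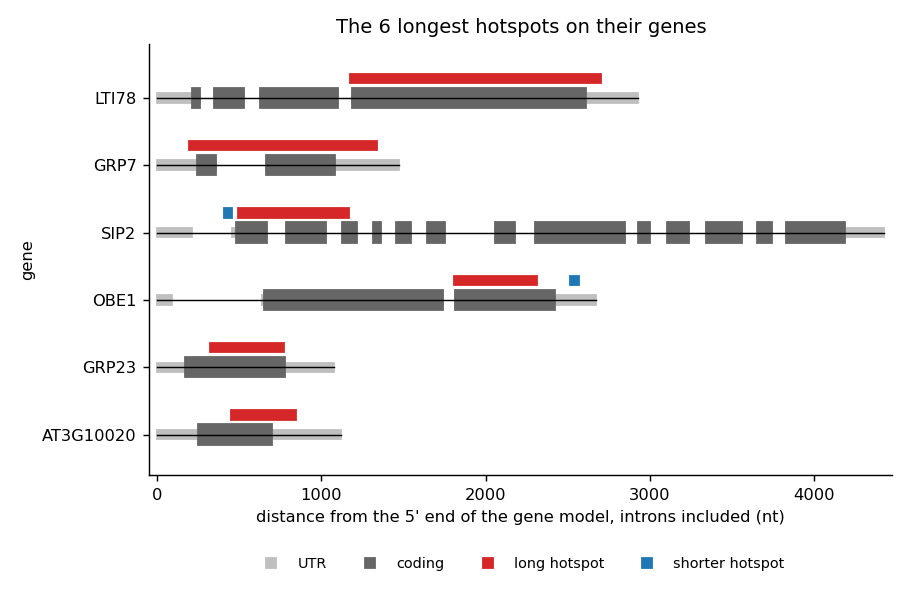
Gene models of the 6 longest hotspots, drawn from the 5′ end of the mRNA with introns included; thin boxes are UTR, thick boxes coding exons, red bars long hotspots and blue bars shorter ones. The hotspots on GRP7 and SIP2 cross introns, and those on GRP23 and AT3G10020 lie inside their single exon.

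The other 9 were shorter than 300 nt. AT1G54410, the dehydrin, had 287 nt, AT3G03920 had 266 nt reaching 105 nt into its 5′ UTR, and AT4G25890 (an acidic protein of the large ribosomal subunit) had 243 nt. The kinase AT3G25840 had 175 nt, EMB1303 (needed for embryo development) 173 nt, EBF2 (an F-box protein that removes the ethylene factor EIN3) 161 nt, FIB2 144 nt, AT3G05220 139 nt and SR34a 117 nt. EBF2 was the only one of the 15 genes with a further long hotspot.

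The very strong group was rich in glycine codons. The share of GGN codons per hotspot had a median of 29.6% in the 15 hotspots (range 5.99 to 74.2). The median was 6.90% in the 1918 other long hotspots with at least 15 whole codons and 5.88% in the shorter hotspots. Pooled over all codons, which is another measure, the share was 7.38% in the shorter hotspots and 6.38% in all coding sequence. The share per hotspot was 30% or more in 7 of the 15 (46.7%, 21.3 to 73.4) and in 10 of the 1918 (0.521%, 0.250 to 0.957). The 7 were GRP23 at 74.2%, AT3G03920 at 56.6%, FIB2 at 56.2%, SR34a at 47.4%, GRP7 at 39.5%, EMB1303 at 33.3% and AT3G05220 at 32.6%. AT4G25890 lay just under that limit at 29.6%. Among the 186 other long hotspots of at least 150 nt with enough codons, none reached 30%, which allows a share of up to 1.96% by the exact interval.

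Purine runs were also longer. The longest unbroken run of A and G had a median of 14 nt in the 15 hotspots, 8 nt in the other long ones and 7 nt in the shorter. A run of at least 15 nt was found in 7 of the 15 and in 164 of the other 2430 (6.75%, 5.78 to 7.82), against 3.51% of the shorter (3.30 to 3.72, very strong ones left out). A longer interval has more room for such a run. Among the other long hotspots of at least 150 nt the share was 8.84% (19 of 215, 5.40 to 13.5).

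The run reached 25 nt on LTI78, 20 nt on AT1G54410, 18 nt on AT4G25890, 17 nt on FIB2 and 16 nt on AT3G10020. It was 15 nt on GRP7 and GRP23. With either feature counted, 11 of the 15 were covered against 117 of 1918 others (6.10%, 5.07 to 7.27). The 4 with neither were SIP2, OBE1, AT3G25840 and EBF2. OBE1 had the highest G+A of the 15 at 74.3%, AT3G25840 had 64.6% and EBF2 64.0%. SIP2, which had the strongest score of any long hotspot, had 50.1% G+A, 9.62% glycine codons and a longest run of 9 nt, so its G+A lay below the median of the other long hotspots. These features and limits were chosen after the sequences were seen, and scores and sequences were not compared by a test.

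**Figure D3:**
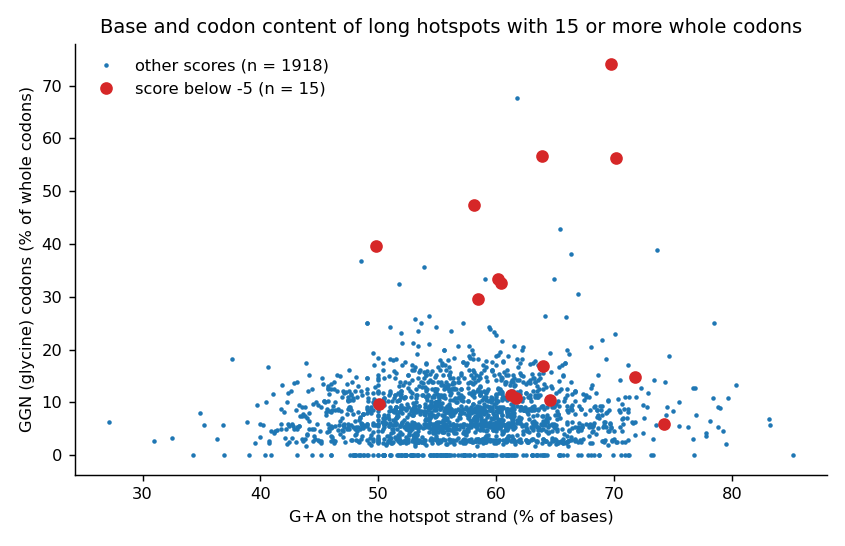
Share of glycine codons against G+A on the hotspot strand for the 1933 long hotspots with at least 15 whole codons. Of the 15 hotspots of very strong score, in red, 7 have 30% or more glycine codons; the highest blue point, at 67.6%, is AT4G29030.

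By amino acid, glycine made up 24.8% of the 1700 whole codons of the very strong group, 7.64% of those of the other long hotspots and 7.38% in the shorter ones. Glutamate was at 11.2%, 8.79% and 8.67%, against 6.70% in all coding sequence. Lysine was at 7.24%, 7.35% and 7.28%, nearly level between the groups, against 6.37% in all coding sequence. Leucine, at 9.51% in all coding sequence, was at 5.18% in the very strong group and 8.32% in the other long hotspots. These pooled shares weigh the longest hotspots most. Of the 1700 codons LTI78 gave 475, with 11.4% glycine codons, and GRP23 gave 151, with 74.2%.

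The other 2430 long hotspots had a median G+A of 56.5%, against 56.8% in the shorter, and both were above the 52.5% of all coding sequence. High G+A was less frequent: 13.0% of all long hotspots had 65% or more, against 17.4% of the shorter, a difference of -4.36 percentage points (-5.71 to -2.91, Newcombe interval). A share over more bases varies less, and the quartiles were 51.8 and 61.4% for long and 50.6 and 62.7% for shorter hotspots. GC was 43.0% in the long and 42.0% in the shorter.

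At least 200 nt was reached by 12 of these 2430. Apart from the GAA repeat they lay mostly in coding sequence, on AT1G55270, DUF5, mtLPD1, ATPC2, GAE1, CYP72A15, FC1, MOS1, ROPGEF12, AT5G64230 and VFB3. Their G+A ran from 42.7% on GAE1 (an epimerase that makes cell wall sugar precursors) to 70% on AT5G64230. Their glycine codon share was highest on ATPC2, at 13.3%.

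A simple repeat with a period of 3 bases and at least 30 nt was found in 4 long hotspots and 9 shorter ones. After the intergenic GAA hotspot, which scored -2.02, the longest was on chromosome 5, at chr5:12710435-12710588 on the minus strand. It was 154 nt long with 99.4% G+A and also had no gene. Every 20-mer of both occurred elsewhere in the genome, so reads from them cannot be assigned to a single place. The other 2 repeats, of 37 and 34 nt, were in the coding sequence of AT5G40520 and AT3G22104.

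No 20-mer occurred elsewhere in the nuclear or organelle genomes for 67.8% of the long hotspots (65.9 to 69.7), 79.4% of the shorter (78.9 to 79.8) and 3 of the 15 very strong ones. A longer interval holds more 20-mers. At least 50% of the 20-mers lay elsewhere for 4.74% of the long hotspots and 4.15% of the shorter, and none of the 15 very strong ones was among these. BIP1 and BIP2, near-identical genes of the BiP chaperone of the endoplasmic reticulum, had hotspots of 102 nt with the same sequence and the same score of -3.22.

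Long hotspots lay in coding sequence more often than shorter ones. Here most means more bases than in any other class, which need not be a majority, and ties with coding sequence were counted as coding. Most of the bases were coding in 77.0% of the long hotspots (75.3 to 78.7) and 68.5% of the shorter (67.99 to 69.04), a difference of 8.50 points (6.71 to 10.2). Introns held most bases in 5.07% and 8.59%, a difference of -3.52 points (-4.38 to -2.53). The 5′ UTR held most in 3.07% and 4.598% (-1.53 points, -2.19 to -0.736), the antisense strand of a gene in 2.37% and 4.27%, and intergenic sequence in 1.23% and 2.45%. The 3′ UTR, at 9.12% and 9.34%, did not differ beyond counting error (-0.223 points, -1.35 to 1.03).

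Counted the other way, 8.31% of the mostly coding hotspots were long, 7.29% of those in 3′ UTRs, 5.10% in 5′ UTRs, 4.54% in introns, 4.28% antisense and 3.88% between genes. Exons of noncoding RNAs stood level with coding sequence, with 8.95% (6.63 to 11.8) of 514 hotspots.

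An exon base of an mRNA was missing from 8.02% of the long hotspots and 15.1% of the shorter, and a longer interval reaches an exon more easily by its length. Counted over bases, the coding share was 7.97 points higher in the long hotspots (76.0% against 68.0%). Over the hotspots with an exon base only, an alternative chosen after seeing the data, it was 2.59 points higher (0.914 to 4.21), and the intron difference changed from -3.21 to 0.363 points (-0.370 to 1.24). That filter itself removes hotspots wholly in introns, antisense or between genes, so these values describe the hotspots kept. The cause of the difference over all hotspots was not tested. On mRNAs of the same length in the deposited table and the annotation, the coding difference was 0.056 points (-4.91 to 4.46, 282 long hotspots). That subset leaves out hotspots on no mRNA, so it too describes only the hotspots kept.

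**Figure D4:**
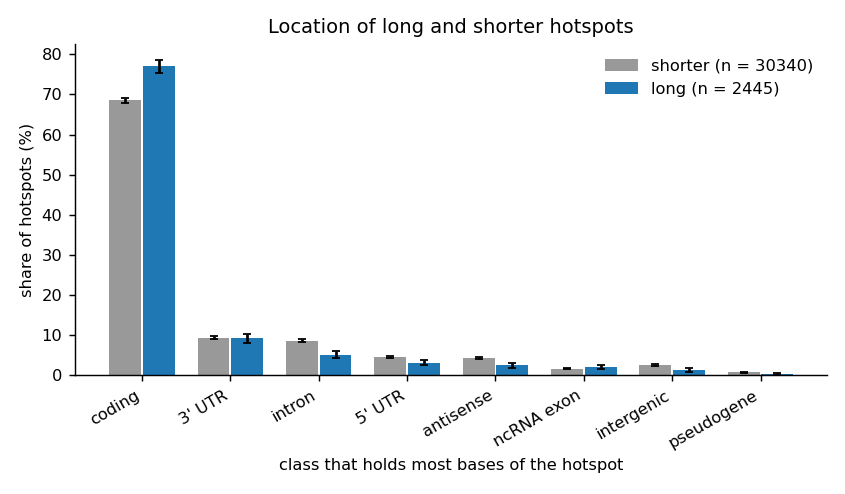
Share of long (blue) and shorter (grey) hotspots by the class that holds more of their bases than any other. Error bars are 95% exact binomial intervals. Coding sequence holds 77.0% of the long and 68.5% of the shorter hotspots, and the 3′ UTR holds nearly the same share of both.

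A stop codon was touched by 8.36% of the long hotspots on an mRNA and 3.65% of the shorter, and a start codon by 5.91% and 4.08%. A longer interval reaches more codons by its length alone, and no correction for length was made. Intron bases were present in 15.0% of the long hotspots and 16.7% of the shorter. They lay wholly inside introns in 2.66% and 6.52%. Intron bases together with under 100 nt of exon were found in 246 long hotspots, which include the 65 that lay wholly inside introns.

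A whole intron lay inside 11 long hotspots and 3 shorter ones. Besides GRP7 and SIP2, the 11 were on BBD1, ATR2, AT4G08690, AT3G61010, AT4G05631, AT5G28320, AT5G41740, PnsL1 and GLX1. On BBD1 (a nuclease of basal defence) 110 of the 155 nt were intron, and on ATR2 (a P450 reductase) 83 of 143 nt. All 20-mers of the AT5G28320 hotspot occurred elsewhere.

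No same-strand gene was found under 24 hotspots that were wholly intergenic. The 5 longest were the GAA repeat at 255 nt, intervals of 185 and 158 nt, the 154 nt purine repeat and one of 132 nt. The 185, 158 and 132 nt intervals had no 20-mer elsewhere and a G+A of 53.0%, 53.8% and 62.1%.

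Each gene's level on ribosomes was taken from the deposited RPKM, the weighted clones scaled to transcript length and to all mapped clones. Of 26633 nuclear protein-coding genes, 2057 carried a long hotspot (7.72%), 11890 carried shorter ones only and 12686 carried none. A single long hotspot was found on 1896 genes, 2 on 146, 3 on 12 and 4 on 3. A shorter hotspot was also present on 74.4% of the 2057.

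Genes with a long hotspot had a median of 0.336 RPKM (0.320 to 0.353, 2038 genes above 0), those with only shorter ones 0.317 (0.310 to 0.324) and those with none 0.146. The ratio of the first to the second was 1.06 (0.988 to 1.14), which does not separate them among genes above 0. With genes at 0 included the ratio was 1.10 (1.02 to 1.18), an interval above 1. It was 0.847 (0.781 to 0.947) among genes with at least 10 weighted clones, and 1.48 (1.04 to 2.14) in the lowest quartile of transcript length, where the medians were 0.525 and 0.355 RPKM. Their mRNAs were longer, with medians of 2072 nt, 1798 nt and 1148 nt in the same order.

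The deciles of RPKM hold only genes above 0. Long hotspots were rarest in the lowest of these deciles. They were on 2.60% (1.997 to 3.33) of genes in the lowest decile of RPKM, on 8.50% in the fourth, on 11.4% (10.1 to 12.7) in the sixth and on 9.99% (8.80 to 11.3) in the highest. The highest decile was 7.38 points above the lowest (6.02 to 8.79) and did not differ from the sixth beyond counting error (-1.37 points, -3.14 to 0.399). Among genes with any hotspot, those with a long one were 9.26% in the lowest decile and 16.7% in the highest. Transcript length moved with the deciles: the median was 1406 nt in the lowest, 1766.5 nt in the sixth and 1417 nt in the highest. The part of RNA abundance in this pattern was not tested, as no total RNA library was used here.

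**Figure D5:**
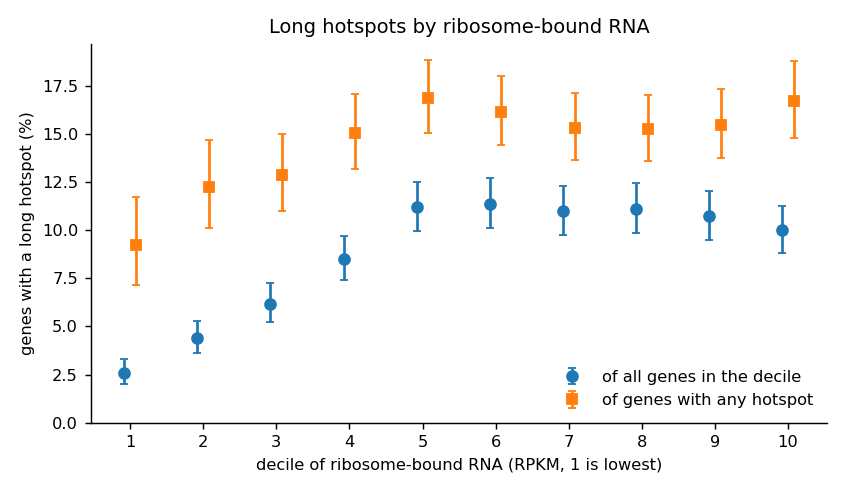
Share of genes with a long hotspot in each decile of ribosome-bound RPKM, with 95% exact binomial intervals. Genes at 0 RPKM are left out. Circles are shares of all genes in the decile and squares shares of those with any hotspot. The share of all genes in the decile goes from 2.60% in decile 1 to 11.4% in decile 6 and 9.99% in decile 10.

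The 15 genes of very strong score ranged from 0.260 to 19.2 RPKM. Counting intervals are Poisson intervals on the weighted clones. GRP23 was highest at 19.2 RPKM (16.4 to 22.4), then GRP7 at 9.44 (7.43 to 11.8), AT1G54410 at 7.37 (5.49 to 9.68) and AT3G10020 at 4.66 (3.20 to 6.57). SIP2 was at 3.83, AT4G25890 at 3.14 and AT3G03920 at 2.88 RPKM. LTI78, with the longest hotspot of all, was at 0.640 RPKM (0.360 to 1.05), and the kinase AT3G25840 was lowest at 0.260 (0.116 to 0.503). The median of all genes above 0 was 0.245 RPKM.

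The genes of highest RPKM with a long hotspot carried short ordinary ones. Excluding 2 with organelle-like sequence, they were MT2B (metallothionein) at 77.7 RPKM, ATA20 (an anther protein) at 52.6, LHCA1 and LHCA3 (light-harvesting proteins of photosystem I) at 46.8 and 42.0, BGLU18 (a beta-glucosidase) at 40.8, RBCS3B and RBCS1A (small subunits of Rubisco) at 38.04 and 31.6, and AT5G60390 (elongation factor EF-1 alpha) at 29.5. Their hotspots were 100 to 150 nt long and scored between -2.62 and -3.51. The 2 left out were AT2G07732, at 361 RPKM, and AT2G07698, at 43.5. They are annotated as parts of Rubisco's large subunit and of ATP synthase, and all their 20-mers occurred elsewhere. RBCS3B's did as well, so which gene copy these 3 hotspots belong to is uncertain.

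At the other end, 19 of the 2057 genes were listed at 0 RPKM, among them AT2G24615 (a defensin-like protein), AT4G27654 and AT5G49260. The other 2038 were above 0, beside 11514 of the 11890 genes with only shorter hotspots, so a value of 0 was rarer here. For the 515 nt mRNA of AT4G27654 a count of 0 still allows up to 0.799 RPKM by the exact interval.

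The genes with most long hotspots had long mRNAs, and all but AT3G23020 lay above the median of 0.336 RPKM of genes with a long hotspot. SYD (a chromatin remodeller of the SNF2 class) had 4 on 11021 nt at 0.540 RPKM, CSI1 (which links cellulose synthase to microtubules) 4 on 7205 nt at 0.842 RPKM, and AT2G07360 (an SH3 domain protein) 4 on 4023 nt at 0.475 RPKM. CHR40 (a chromatin remodeller, 0.450 RPKM) and AT3G23020 (a TPR-like protein, 0.0757 RPKM) had 3 each. Their hotspots were 100 to 157 nt long.

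Over 10 gene lists, 22 of 125 genes carried a long hotspot (17.6%, 11.4 to 25.4), beside 7.72% of all genes. Because the lists were chosen with earlier results of these data known, this share is a description and does not measure enrichment. The lists held highly expressed genes, with a median of 2.57 RPKM against 0.195 in all genes, zeros included, and 80 of the 125 were in the highest decile, where 9.99% carried one. Among glycine-rich RNA-binding and cold shock domain proteins, GRP7 alone of 13 did, while 6 had shorter hotspots only and 6 had none. Of 20 SR splicing factors it was SR34a and RS2Z33. Of 16 cold and dehydration genes it was LTI78 and CBF2 (a factor that turns on cold genes), the latter with 172 nt and 46.4% of its 20-mers elsewhere.

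Raffinose and galactinol metabolism gave 2 of 7: SIP2 and DIN10, which had hotspots of 129 and 101 nt over its 5′ UTR. Of 11 HSP70, BiP and HSP90 chaperones 4 carried one, namely HSP81-2, HSP81-3, BIP1 and BIP2, and 29.8 to 100% of the 20-mers of these occurred elsewhere. Tapetum and pollen wall genes gave 3 of 15, with MEE48 (186 nt, a glycosyl hydrolase), GRP17 (110 nt, a pollen coat oleosin) and ATA20 (107 nt). Photosynthesis gave 3 of 16, translation 2 of 11 (AT5G60390 and PAB8), histone H4 2 of 8 and floral MADS-box genes 1 of 8, which was SEP2, with 129 nt at its start codon. With so few genes in a list, these counts are descriptions and set no list apart.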

How the data were processed

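The members, gene lists and measures were chosen with earlier results of these data known. The submitters' processing notes list Bowtie 0.12.7 and cutadapt 0.9.5, with build TAIR9. The hotspot caller, the score deposited by the authors and its formula are not explained in the sources used here, and an FDR of 5% stands in the list's name. Per the file headers, the table gives for each transcript a count of clones, an estimated count of clones weighted by the authors, RPM and RPKM. The weights are not explained. The deposited RPM and RPKM values rest on the weighted clones, all mapped clones and, for RPKM, the listed transcript length.

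Locations, gene names and sequences came from RefSeq TAIR10.1, whose nuclear chromosomes kept the TAIR9 sequence. On the same strand, 88.5% of long-hotspot bases lay in mRNA exons, against 75.5% after a move of 100 nt and 24.1% after 10000 nt. For each gene the isoform of longest coding sequence present in both sources was used, with overlap of at least 1 nt, and 22.2% of isoforms had the same length in both. Of the 2445 long hotspots, 2234 lay on an mRNA of the table, 15 on a gene whose isoform was not in it and 196 on no mRNA exon. Each base was given a single class, and organelle hotspots (402) were left out. Copies were counted as 20-mers found elsewhere in the nuclear and organelle genomes.

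Shares carry 95% exact binomial (Clopper-Pearson) intervals, differences Newcombe intervals, medians order-statistic intervals and RPKM exact Poisson intervals. With 1 library per assay no test was made. The median gene with a long hotspot rested on 6.57 weighted clones. Named were the 10 longest and 10 strongest hotspots, the carriers of highest (10) and lowest (3) RPKM, the 5 genes with most long hotspots, the 5 longest intergenic ones and up to 4 carriers per list. Computations used Python 3.11.15, pandas 2.3.3, NumPy 2.4.6 and SciPy 1.17.1, and the functions were tested on simulated data. Alternatives covered the length limit, very strong scores, isoforms, overlap, low RPKM, clone weights, transcript length and coding sequence alone.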

Additional observations from a re-analysis of the deposited data

How the results depend on the processing

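No paired analysis was possible because each assay had 1 library. Of 63 alternatives, 41 stayed within the interval of the value reported. Among these 41, the G+A difference of wholly coding hotspots changed sign, from -0.199 points in all hotspots to 0.392 (-0.377 to 1.07). A limit of 80 nt gave a median score difference of -0.399 and 14.6 points between the highest and lowest RPKM decile. The RPKM ratio at that limit was 1.09 (1.03 to 1.17), an interval above 1. A limit of 150 nt (227 hotspots) gave 11.4 points for coding bases, -4.29 for intron bases, an RPKM ratio of 1.17, 1.58 points between deciles and a G+A difference of 0.462 points. A limit of 200 nt leaves 21 hotspots, 9 of very strong score. It gave -0.971 for score, 10.9 points for coding bases, -2.03 for intron bases, an RPKM ratio of 2.37 (1.35 to 10.1), 0.384 points between deciles, 3.02 points for GC and 4.50 for G+A. Intron-holding hotspots turned from -1.71 to 11.99 points (-2.78 to 33.4). The counts of long hotspots are smaller by construction.

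On mRNAs of equal length in both sources, which leaves out hotspots on no mRNA, the coding difference was 0.056 points. The intron difference there turned from -3.21 to 0.788. Among hotspots with an mRNA exon base, chosen after seeing the data, they were 2.59 and 0.363 points; this leaves out hotspots wholly in introns. The RPKM ratio was 0.847 with at least 10 weighted clones and 1.48 in the lowest length quartile, and the cause was not tested. Wholly coding hotspots differed in GC by 0.703 points, against 1 in all. The settings for G+A were also chosen after seeing the data.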

Other observations

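Glycine-rich stretches also occurred, rarely, among long hotspots of ordinary score. The 10 with at least 30% glycine codons were 101 to 128 nt long. AT4G29030 had 67.6% and a score of -3.22, and the anther gene ATA20 had 42.9% and a score of -3.48. GRP17, of the pollen coat, had 38.9%, 73.6% G+A and a weak score of -1.69. The histone H4 gene AT5G59970 had 38.1% over its first codons. The others were on CLC-D (a chloride channel), CDKC2 (a kinase of the transcription machinery), AT4G00585, CDC48C (an AAA ATPase), SPL9 (a factor of developmental timing) and AT4G17520, with 30.6 to 36.8%. None of these 10 scored below -3.59, which follows from their choice among ordinary scores.

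Very strong scores were not limited to long hotspots. The 8 shorter ones had 50 to 78 nt and scores from -10.03 to -16.37. Of these, 4 were intergenic, and at least 50% of the 20-mers of 3 of them occurred elsewhere. The other 4 were wholly coding, on AT5G63370 and AT5G18190 (protein kinases), AT1G31550 (a GDSL lipase) and AT1G11850. The 69 nt on AT1G11850 had 78.3% glycine codons, whereas AT5G63370 had 11.1%, AT1G31550 10% and AT5G18190 4.55%. None of the 8 had a purine run of 15 nt or more, a share of up to 36.9% by the exact interval.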
